A study of Homo sapiens with 6 samples.

Results

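Voltage-gated calcium channel alpha subunits were examined in 6 libraries of a human neuroblastoma cell line, as the 8 genes *CACNA1A*, *CACNA1B*, *CACNA1C*, *CACNA1D*, *CACNA1E*, *CACNA1G*, *CACNA1H* and *CACNA1I*. The genes were chosen by symbol from the 60651 genes of the count tables with no threshold on a measured value. All 8 were present in every table, but only 3 of them (*CACNA1B*, *CACNA1D* and *CACNA1H*) had enough counts to be tested. The libraries came from 3 cultures titled EtOH, the ethanol vehicle, and 3 titled Tet, treated with tetracycline for 5 days per the labels, and total RNA was sequenced after removal of ribosomal RNA. The labels disagreed on the cells. The titles name IMR-5/75, a *MYCN*-amplified line, and a tag speaks of knockdown, whereas the protocol text describes SK-N-SH with an inducible *MYCN* expression system kept as single clones in G418 and blasticidin. Groups are therefore called by their titles only, and whether the 3 cultures of a group were grown independently was not stated, so that p-values measure the spread between these libraries.

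An alpha subunit forms the pore of a voltage-gated calcium channel and carries its voltage sensors, so that the alpha subunit present decides which calcium current a cell has. *CACNA1C* and *CACNA1D* encode L-type channels, known for slow, long-lasting currents that couple electrical activity to transcription and hormone release. *CACNA1A* encodes the P/Q-type, *CACNA1B* the N-type and *CACNA1E* the R-type channel, which trigger transmitter release at nerve endings, and N-type current is typical of sympathetic neurons. *CACNA1G*, *CACNA1H* and *CACNA1I* encode T-type channels, which open at small depolarisations. Alpha2delta and beta subunits bring the pore to the membrane and tune its gating, and small G proteins of the RGK family inhibit it.

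*CACNA1B* and *CACNA1D* were present in all 6 libraries at a few CPM (counts relative to the size of the library), with the higher mean in the libraries titled Tet. *CACNA1H* was lower than both in every library except Tet replicate 3, where it was several times higher than in any other library. The remaining 5 genes were at or close to 0. None of the 3 genes tested passed the threshold of an adjusted p-value under 0.05 in the quasi-likelihood test of edgeR, and none had an unadjusted p-value under 0.05. Over all 22443 genes tested, 0.236% passed the adjusted threshold and 10.8% had an unadjusted p-value under 0.05. DESeq2 and limma-voom called none of these 3 genes either, although DESeq2 gave *CACNA1H* an unadjusted p-value of 0.0374. Neither gave an adjusted p-value for the other 5 genes. The plot of alpha subunit levels shows each library.

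**Figure D1:**
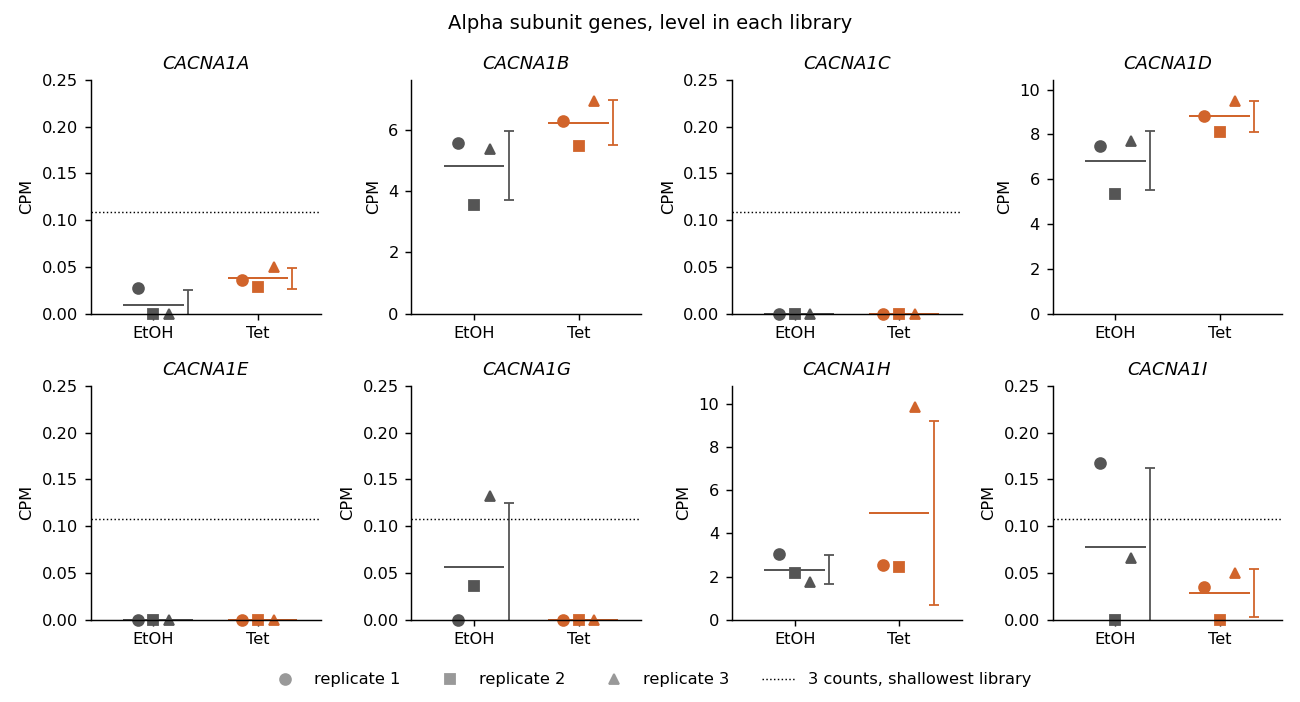
Level of each of the 8 alpha subunit genes in CPM (y axis, own scale for each gene, starting at 0) in libraries titled EtOH and Tet. Points are single libraries with the replicate as symbol, lines are means and bars are SD (n = 3). In the panels of genes at or close to 0, the dotted line marks 3 counts in EtOH replicate 2 (0.108 CPM), the library with the smallest scaled size. *CACNA1H* had 9.85 CPM in Tet replicate 3 and at most 3.04 CPM elsewhere.

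Library totals ran from 27933378 to 40498065 counts, with means of 30720956 ± 2946877 for EtOH and 35163473 ± 6493269 for Tet (SD, n = 3 each, exact two-sided permutation test, p = 0.4, where 0.1 is the smallest p that 3 against 3 allow). At these depths 3 counts in a library correspond to 0.0755 to 0.108 CPM. Values of single libraries are listed below in the order of replicates 1, 2 and 3. *MYCN*, the gene that the cells were built to regulate, had 158, 256 and 156 CPM in the libraries titled EtOH and 196.6, 200.1 and 145.4 CPM in those titled Tet, so that the titles were not borne out by a change in *MYCN* in either direction (log2 ratio of Tet over EtOH -0.07 with SE 0.23, adjusted p = 0.956 by edgeR). Of 12 sympathoadrenal neuroblastoma markers, 10 were above 0 in all 6 libraries, and their summed level was 633 to 717 CPM in libraries titled EtOH and 741 to 883 CPM in those titled Tet. *GATA3* and *HAND2* were abundant, whereas *TH*, the enzyme that begins catecholamine synthesis, had counts in Tet replicate 3 only. Summed fibroblast and mesenchymal markers were at 14.6 to 19.8 CPM in libraries titled EtOH and 22.2 to 25.3 CPM in those titled Tet, although the median log2 fold change of the 5 tested was -0.54 (from -0.97 to 1.03). Summed Schwann and glial, immune, endothelial and muscle markers were each at most 4.96 CPM in any library. In such bulk values, fewer cells that express a gene and less RNA of it per cell cannot be told apart.

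*CACNA1B* (ENSG00000148408.13) lies on chromosome 9 (137877782 to 138124624, plus strand, GRCh38), with 9904 exon bases of which 0.475% are shared with an antisense gene. It had 200, 98 and 162 counts in the libraries titled EtOH, which make 5.58, 3.53 and 5.36 CPM. Those titled Tet had 177, 194 and 275.5 counts, which make 6.27, 5.47 and 6.93 CPM. Tet replicate 2 lay just below EtOH replicate 1, so the groups overlapped, and EtOH replicate 2 was the lowest library. The means were 4.82 ± 1.12 and 6.23 ± 0.732 CPM (SD, n = 3 each). On the log2 scale the difference of Tet from EtOH was 0.37 (SE 0.26), short of the threshold (edgeR adjusted p = 0.690), and it was 0.19 without EtOH replicate 2.

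*CACNA1D* (ENSG00000157388.19), the L-type subunit of endocrine cells, sinoatrial node and neurons, lies on chromosome 3 (53328963 to 53813733, plus strand). It had 7.46, 5.32 and 7.69 CPM in the libraries titled EtOH and 8.83, 8.11 and 9.49 CPM in those titled Tet, from 147.5 to 377 counts per library. All 3 libraries titled Tet lay above all 3 titled EtOH, which held for 9.21% of the genes tested. With means of 6.82 ± 1.31 and 8.81 ± 0.689 CPM (SD, n = 3 each), the difference was 0.37 on the log2 scale (SE 0.22), again short of the threshold (edgeR adjusted p = 0.628). Without EtOH replicate 2, the lowest library here as well, it was 0.22. Of its exon bases, 7.29% are shared with *CHDH* on the other strand. The reads were counted without regard to strand, so that part of the signal of the 2 genes cannot be told apart.

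*CACNA1H* (ENSG00000196557.13), a T-type subunit, lies on chromosome 16 (1153106 to 1221771, plus strand). The libraries titled EtOH had 3.04, 2.18 and 1.77 CPM of it, from 109, 60.5 and 53.5 counts. Among those titled Tet the level was 2.53, 2.45 and 9.85 CPM, from 71.5, 87 and 391.5 counts. Tet replicates 1 and 2 were thus within the range of the libraries titled EtOH, and Tet replicate 3 alone was above it. The fitted log2 fold change, 1.09 (SE 0.55) with an edgeR adjusted p of 0.542, fell to 0.10 (SE 0.34, edgeR adjusted p = 0.957) when Tet replicate 3 was left out. *CACNA1H* was thus the alpha subunit with the largest fitted difference, and that difference came from 1 library. Its exon bases are shared with other genes to 2.59%.

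Base composition moved with this result. Of the exon bases of *CACNA1H*, 66.4% are G or C, a higher share than in 99.3% of the protein-coding genes tested, against 57.9% for *CACNA1B* and 48.4% for *CACNA1D*. In the bin of 898 genes richest in G and C (median 63.1%), the median log2 deviation from the mean over the 6 libraries was 0.75 in Tet replicate 3, and between -0.23 and 0.02 in the other 5 libraries. Of 14 genes tested from the alpha subunit, accessory, anchor and calcium lists with 55% G and C or more, 11 (78.6%) had their highest level in Tet replicate 3, against 4 of 39 (10.3%) with less. Over all genes tested these shares were 58.9% and 14.8%. With the GC deviation of each library entered as an offset, an alternative chosen after the data were seen, the log2 fold change of *CACNA1H* was 0.62 (SE 0.35, edgeR adjusted p = 0.514), that of *CACNA1B* was 0.32 and that of *CACNA1D* was 0.41. Over protein-coding genes, the tenth richest in G and C (from 61.4%) had a median of 0.126 TPM, counts per exon length scaled to a common total, against 24.6 TPM in the tenth poorest (up to 38.9%). *CACNA1I* with 61.6% and *CACNA1G* with 59.3% are also rich in G and C, whereas *CACNA1C* and *CACNA1E*, with 52.1% and 49.2%, are not. The part of base composition in the value of *CACNA1H* beyond this offset was not tested.

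**Figure D2:**
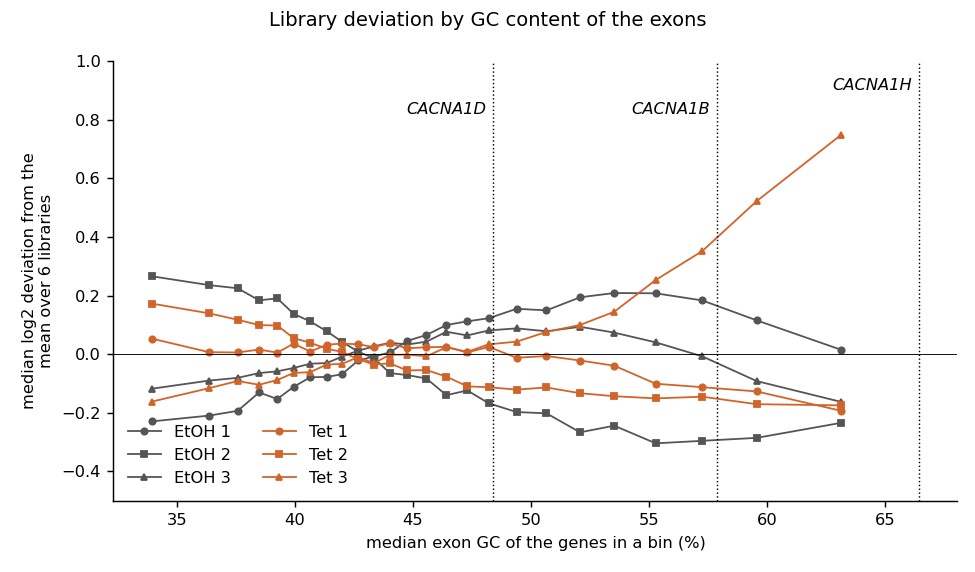
Median log2 deviation of each library from the mean over the 6 libraries (y axis) for genes tested, in 25 bins of exon GC content (x axis, median of the bin in percent). Symbols give the replicate, grey and orange lines are libraries titled EtOH and Tet, and dotted lines mark the exon GC content of the 3 alpha subunit genes tested. Tet replicate 3 reached 0.75 in the bin richest in G and C.

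The other 5 alpha subunits gave 0 to 6 counts per library. *CACNA1C* (ENSG00000151067.22, chromosome 12, 1970786 to 2697950), the L-type subunit of heart and smooth muscle, and *CACNA1E* (ENSG00000198216.12, chromosome 1, 181317690 to 181808084) had 0 counts in all 6 libraries. They have 19681 and 18271 exon bases, and of 3719 protein-coding genes with 8000 exon bases or more only 120 (3.23%) were at 0 throughout. *CACNA1A* (ENSG00000141837.22, chromosome 19, 13206442 to 13633025) had 1, 0 and 0 counts in the libraries titled EtOH and 1, 1 and 2 in those titled Tet. *CACNA1G* (ENSG00000006283.18, chromosome 17, 50560715 to 50627474) had 0, 1 and 4 counts in the libraries titled EtOH and 0 in each titled Tet. *CACNA1I* (ENSG00000100346.18, chromosome 22, 39570753 to 39689735) had 6, 0 and 2 counts in the libraries titled EtOH and 1, 0 and 2 in those titled Tet. These levels were at or near what 3 counts allow, and no difference between the titles was detectable at this depth. *CACNA1F* and *CACNA1S*, the L-type subunits of retina and skeletal muscle, also had 0 counts in every library.

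The sequences before the start sites are shown for 4 members because they hold 2 detected genes and 1 undetected gene of like base composition, and 1 more with the E-box. The promoters used held none for *CACNA1G* and *CACNA1H*, so *CACNA1H*, also detected in every library, is left out of this comparison. Each is the 250 bases before the RefSeq start (GRCh38.p14), 5′ to 3′ on the strand of the gene. Capitals mark the E-box CACGTG, the core motif of MYC, MYCN and MAX, which is its own reverse complement, and the GC box GGGCGG or its reverse complement CCGCCC, where neighbouring matches may overlap.
CACNA1B (chr9:137877532-137877781, plus strand): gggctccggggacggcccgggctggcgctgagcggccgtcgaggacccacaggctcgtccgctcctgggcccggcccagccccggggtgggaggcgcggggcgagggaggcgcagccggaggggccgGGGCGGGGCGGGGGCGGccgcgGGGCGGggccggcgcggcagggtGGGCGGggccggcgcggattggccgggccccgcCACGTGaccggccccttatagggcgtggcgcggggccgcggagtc
CACNA1D (chr3:53494361-53494610, plus strand): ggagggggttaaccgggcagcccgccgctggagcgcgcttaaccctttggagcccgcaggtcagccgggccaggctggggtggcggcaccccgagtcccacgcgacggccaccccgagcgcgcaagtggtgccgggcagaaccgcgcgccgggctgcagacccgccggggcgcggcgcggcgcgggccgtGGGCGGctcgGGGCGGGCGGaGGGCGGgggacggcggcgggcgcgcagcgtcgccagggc
CACNA1C (chr12:2052737-2052986, plus strand): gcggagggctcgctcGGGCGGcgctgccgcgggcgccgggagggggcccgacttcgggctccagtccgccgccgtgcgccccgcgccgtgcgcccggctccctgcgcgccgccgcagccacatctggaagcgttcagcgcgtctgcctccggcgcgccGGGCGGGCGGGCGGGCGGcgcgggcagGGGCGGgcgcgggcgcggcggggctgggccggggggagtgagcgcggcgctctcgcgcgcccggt
CACNA1I (chr22:39570503-39570752, plus strand): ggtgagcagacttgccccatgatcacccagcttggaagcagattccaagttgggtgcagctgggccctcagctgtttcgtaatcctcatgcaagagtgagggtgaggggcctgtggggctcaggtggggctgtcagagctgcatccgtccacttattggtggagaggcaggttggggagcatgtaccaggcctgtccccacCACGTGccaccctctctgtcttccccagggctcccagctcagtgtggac
Windows of *CACNA1B*, *CACNA1D* and *CACNA1C* were 85.2%, 81.6% and 85.6% G and C, with 39, 41 and 51 CpG dinucleotides, against medians of 58% and 11 over 35116 RefSeq promoters of this length. *CACNA1B* and *CACNA1D* were detected in every library and *CACNA1C* in none. The windows of *CACNA1I*, *CACNA1A* and *CACNA1E*, which were at or close to 0 as well, were 60.8%, 58.8% and 48.8% G and C. The E-box occurred once before *CACNA1B* and once before *CACNA1I*, and in 6.34% of all promoters. The GC box occurred before *CACNA1B*, *CACNA1D* and *CACNA1C*, and also before *CACNA1A*, which was close to 0. It did not occur before *CACNA1I* or *CACNA1E*, and was found in 42.6% of all promoters on either strand. The RefSeq starts of *CACNA1D* and *CACNA1C* lie 165648 and 82201 bases inside the gene as annotated in the count tables. Those of *CACNA1A* and *CACNA1E* lie 126546 and 165827 bases inside, and 206 of the 250 bases before *CACNA1E* are in its own annotated exons. Counts per gene do not show which start was used.

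To compare levels between members, TPM was used, as above. *CACNA1B* had 1.35 ± 0.256 TPM in libraries titled EtOH and 1.67 ± 0.146 TPM in those titled Tet. *CACNA1D* had 0.986 ± 0.146 and 1.22 ± 0.0741 TPM, and *CACNA1H* 0.753 ± 0.197 and 1.46 ± 1.15 TPM (SD, n = 3 each). The median over protein-coding genes was 1.14 TPM, so that the 3 detected members lay near the middle of all coding genes. That median is over genes of every base composition. *CACNA1H*, with 66.4% G and C, belongs to the tenth richest in G and C, where the median was 0.126 TPM. *CACNA1B* was above *CACNA1D* in all 6 libraries, by 0.36 to 0.53 on the log2 scale of TPM, although the ranges of the EtOH libraries of the 2 genes overlapped. *CACNA1H* was the lowest of the 3 in 5 libraries and the highest in Tet replicate 3. In libraries titled EtOH the ranges of *CACNA1D* and *CACNA1H* overlapped, from 0.819 to 1.09 and from 0.558 to 0.951 TPM.

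The order of *CACNA1B* and *CACNA1D* depended on the length used. *CACNA1D* has 19184 exon bases over all its transcripts but 9369 in its canonical transcript, whereas *CACNA1B* has 9904 and 9792. With canonical lengths, an alternative added after the data were seen, *CACNA1D* was above *CACNA1B* in all 6 libraries, with log2 ratios of *CACNA1B* to *CACNA1D* from -0.65 to -0.48. Of the summed alpha subunit TPM, *CACNA1B* made up 43.0% ± 3.18 in libraries titled EtOH and 39.7% ± 8.59 in those titled Tet, and *CACNA1D* 31.6% ± 2.50 and 29.2% ± 7.04. *CACNA1H* made up 24.2% ± 5.81 and 30.8% ± 15.6 (SD, n = 3 each). In Tet replicate 3 its share was 48.8%, and without that library its mean share in libraries titled Tet was 21.9%, below the mean of the libraries titled EtOH. The 3 shares are parts of 1 total, so a high value of 1 lowers the others. Neither the order nor the shares were corrected for exon GC content, which is 57.9% in *CACNA1B*, 48.4% in *CACNA1D* and 66.4% in *CACNA1H*.

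**Figure D3:**
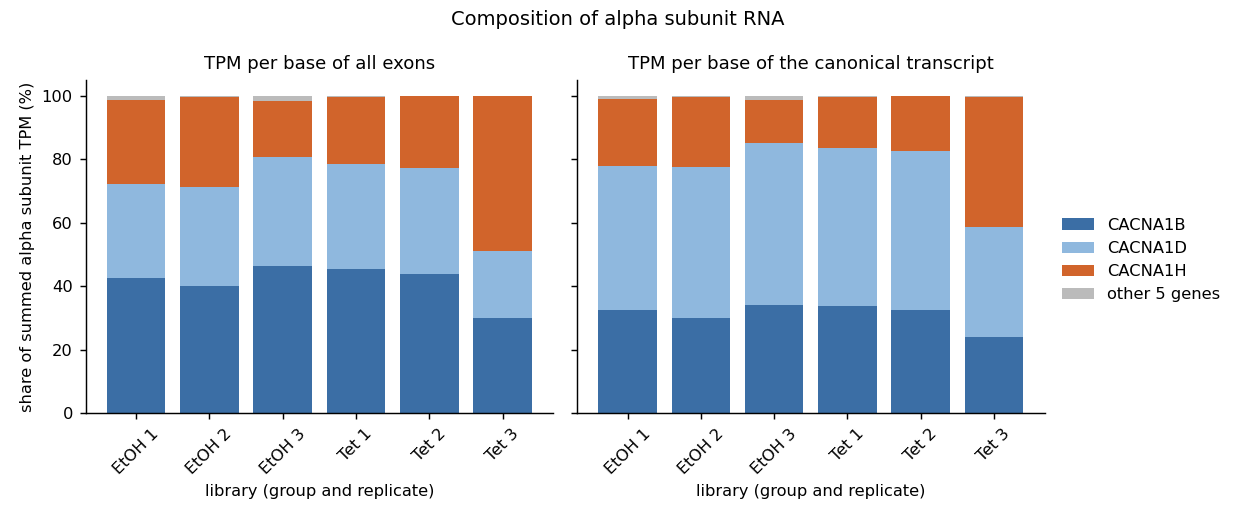
Share of each alpha subunit gene in the summed alpha subunit TPM (y axis, percent) in the 6 libraries (x axis), with TPM from all exon bases on the left and from the canonical transcript on the right. *CACNA1H* held 48.8% in Tet replicate 3 on the left panel, and *CACNA1D* exceeded *CACNA1B* in every library on the right panel only.

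The 3 members tested kept a positive log2 fold change in all 15 alternative fits, none of which called any of them. *CACNA1B* ranged from 0.19 to 0.47, *CACNA1D* from 0.22 to 0.43 and *CACNA1H* from 0.10 to 1.42. The lowest value of *CACNA1B* and *CACNA1D* came from the fit without EtOH replicate 2, and that of *CACNA1H* from the fit without Tet replicate 3.

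**Figure D4:**
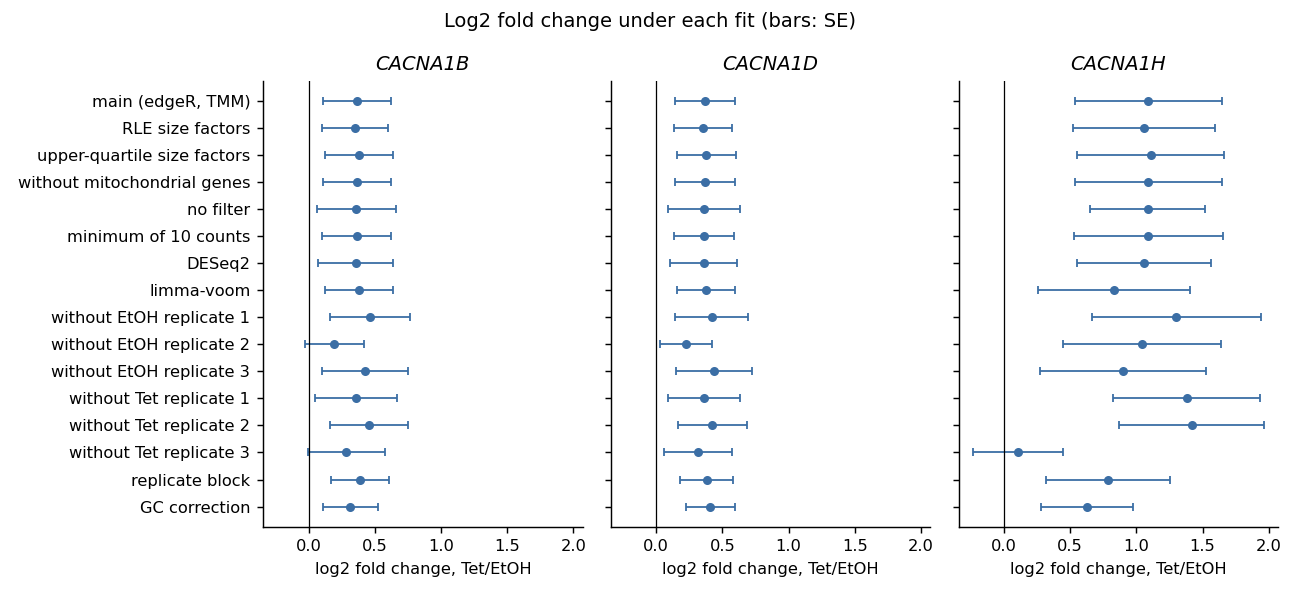
Log2 fold change of the libraries titled Tet over those titled EtOH (x axis) for the 3 alpha subunit genes tested, under the main fit and 15 alternatives (y axis). Points are estimates and bars are SE. *CACNA1H* lay at 0.10 without Tet replicate 3 and between 0.62 and 1.42 in all others.

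Summed by class, the alpha2delta and beta subunits were more abundant per length than the pores, and the gamma subunits less so. Most of these 2 sums was *CACNA2D1* and *CACNB2*, with means of 50.2 and 18.6 TPM in libraries titled EtOH. In those libraries *CACNA2D2*, *CACNA2D3*, *CACNB1* and *CACNB3* had means of 0.091, 0.080, 0.26 and 0.59 TPM, below *CACNA1B* with 1.35 TPM. *CACNA2D4* was at 0, and *CACNB4* with 1.79 TPM was above *CACNA1B*. TPM was not corrected for base composition, and its median was 24.6 in the tenth of coding genes poorest in G and C against 0.126 in the richest. Exons of *CACNA2D1* and *CACNB2* are 37.1% and 43.2% G and C, against 57.9% for *CACNA1B*, 48.4% for *CACNA1D* and 66.4% for *CACNA1H*. The part of base composition in the order of these classes was not tested. The summed TPM of the 8 alpha subunits was 3.12 ± 0.468 in libraries titled EtOH and 4.36 ± 1.20 in those titled Tet, that of 4 alpha2delta genes 50.4 ± 9.21 and 93.2 ± 21.8, that of 4 beta genes 21.2 ± 1.83 and 20.7 ± 1.27, and that of 8 gamma genes 1.08 ± 0.330 and 1.502 ± 0.370 (SD, n = 3 each). Of 16 alpha2delta, beta and gamma genes, 8 were tested and none passed the threshold. Unadjusted p-values under 0.05 were found for 3 of the 8 that were higher and 2 that were lower in libraries titled Tet, against 5.83% and 4.94% of all genes tested. The median log2 fold change of the 8 was 0.56, against -0.01 over all genes tested.

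*CACNA2D1*, an alpha2delta subunit and target of gabapentin, was the most abundant accessory gene. It had 145.9, 184.8 and 152 CPM in the libraries titled EtOH and 279, 386 and 273 CPM in those titled Tet. Every library titled Tet was above every library titled EtOH, as for 9.21% of all genes tested. A log2 fold change of 0.96 with SE 0.19 missed the threshold (edgeR adjusted p = 0.0949), but passed it in 5 of 15 alternatives, among them DESeq2 (adjusted p = 0.0140) and the GC correction (edgeR adjusted p = 0.0289). Its exons are 37.1% G and C. *CACNA2D3*, its low-level relative, had 0.0558, 0.180 and 0.165 CPM against 0.532, 0.423 and 0.830 CPM (log2 ratio 2.16 with SE 0.60, adjusted p = 0.219 by edgeR). *CACNA2D2* was too low to be tested, and *CACNA2D4* had 0 counts throughout.

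All 4 beta genes were tested. *CACNB2*, the beta subunit with the highest level, had 68.4, 77.0 and 77.6 CPM in the libraries titled EtOH and 72.5, 83.4 and 76.8 CPM in those titled Tet (log2 ratio 0.06 with SE 0.14, adjusted p = 0.934 by edgeR), and the groups overlapped. *CACNB4* had 21.7, 23.4 and 24.2 CPM against 15.2, 14.2 and 13.9 CPM. Every library titled Tet was below every library titled EtOH for *CACNB4*, as for 8.29% of all genes tested, yet a log2 fold change of -0.68 with SE 0.16 missed the threshold (edgeR adjusted p = 0.159). *CACNB1* and *CACNB3*, which have 58.4% and 58.7% G and C, were highest in Tet replicate 3, with 1.95 and 3.72 CPM, and overlapped between the titles.

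**Figure D5:**
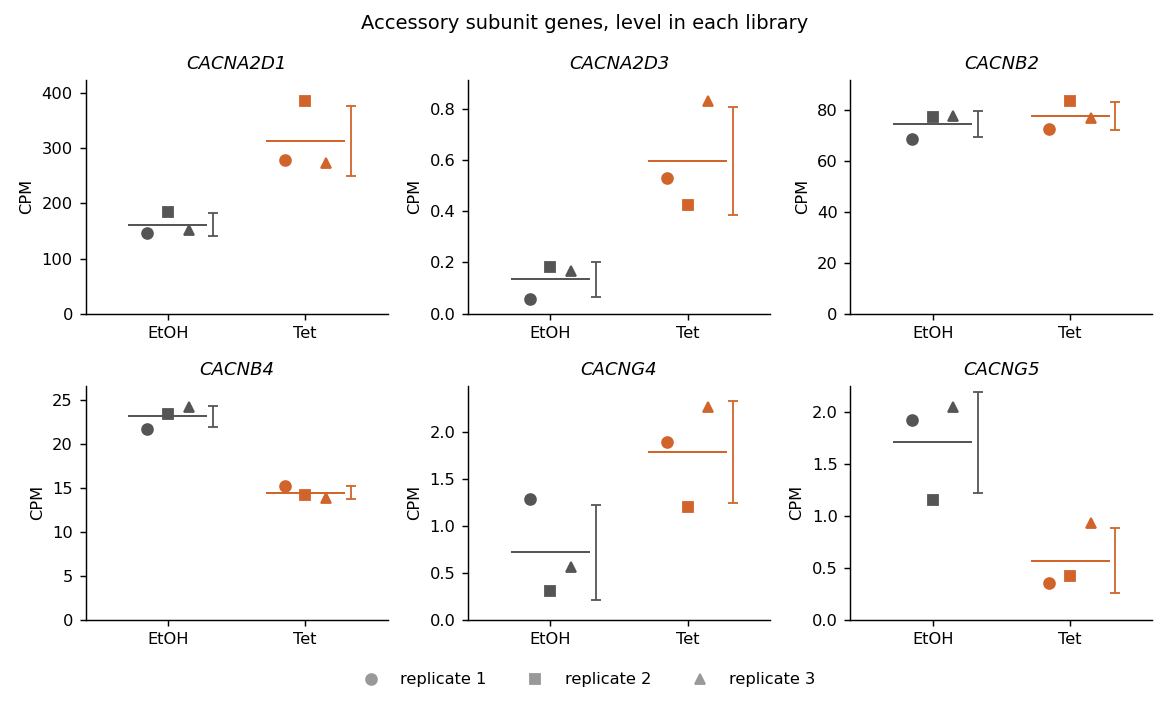
Level of 6 accessory subunit genes in CPM (y axis, own scale for each gene, starting at 0) in libraries titled EtOH and Tet. Points are single libraries with the replicate as symbol, lines are means and bars are SD (n = 3). *CACNA2D1*, *CACNA2D3*, *CACNB4* and *CACNG5* did not overlap between the titles. The 6 genes were chosen as the most abundant of their list or for an unadjusted p-value under 0.05 by edgeR. Over all genes tested, Tet lay wholly above EtOH for 9.21% and wholly below for 8.29%.

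Of 8 gamma genes, 2 were tested, and these include subunits better known as partners of AMPA receptors. *CACNG4* had 1.28, 0.307 and 0.562 CPM in the libraries titled EtOH and 1.90, 1.20 and 2.27 CPM in those titled Tet (log2 ratio 1.31 with SE 0.54, adjusted p = 0.437 by edgeR). *CACNG5* had 1.93, 1.15 and 2.05 CPM against 0.354, 0.423 and 0.931 CPM (log2 ratio -1.56 with SE 0.47, adjusted p = 0.265 by edgeR). The first overlapped between the titles. For the second, every library titled Tet was below every library titled EtOH, as for 8.29% of all genes tested. Among 4 RGK inhibitors only *GEM* was tested, with 4.83, 12.1 and 5.16 CPM against 8.37, 6.66 and 8.13 CPM (log2 ratio 0.07 with SE 0.36, adjusted p = 0.977 by edgeR). Both its lowest and its highest library were titled EtOH.

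Proteins that anchor the channels at release sites, act on the entering calcium or remove it were read in 3 lists of 53 genes, of which 41 were tested and none passed the threshold. Together with the accessory and RGK lists, 73 genes were listed and 50 tested. Unadjusted p-values under 0.05 were found for 8 of the 50 that were higher and 3 that were lower, against 5.83% and 4.94% of all genes tested. All libraries titled Tet were above all titled EtOH for 8 and below for 5, against 9.21% and 8.29% of all genes tested. The median log2 fold change of the 50 genes was 0.21.

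*RIMS2*, an active-zone scaffold that binds N- and P/Q-type channels, had 104, 78.9 and 99.3 CPM in libraries titled EtOH and 116.7, 114.5 and 129 CPM in those titled Tet (log2 ratio 0.35 with SE 0.16, adjusted p = 0.477 by edgeR). The scaffold *RIMBP2*, which links RIM proteins to the channels, had 14.8, 9.23 and 15.5 CPM against 24.0, 19.3 and 18.9 CPM (log2 ratio 0.65 with SE 0.24, adjusted p = 0.369 by edgeR). For both, all libraries titled Tet were above all titled EtOH, as for 9.21% of all genes tested. In both EtOH replicate 2 was lowest, as for *CACNA1B* and *CACNA1D*. That library was also the lowest for 26.6% of all genes tested with under 55% G and C, and for 38.8% of those with 55% or more. *RIMS1* had a log2 fold change of 0.42 (SE 0.23) and overlapped. *STAC*, an adaptor known for its action on L-type channels, was the most abundant of this list per length and differed by -0.05 (SE 0.15) on the log2 scale.

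The calcium sensor calmodulin was represented at the highest level by *CALM2*, with 225 to 512 CPM in libraries titled EtOH and 303 to 532 CPM in those titled Tet. *CAMK4*, a kinase that carries calcium signals to the nucleus, had 240.9, 247 and 252 CPM against 377, 392 and 323 CPM (log2 ratio 0.56 with SE 0.14, adjusted p = 0.184 by edgeR). Its libraries titled Tet were all above those titled EtOH, as for 9.21% of all genes tested. *CAMK2D* had a log2 fold change of -0.31 (SE 0.15), and *PPP3CA*, a catalytic subunit of calcineurin, of 0.54 (SE 0.26). In this fit neither of these passed the threshold, nor did *CAMK4*.

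For removal and storage of calcium, the plasma membrane pump *ATP2B1* was the most abundant gene and differed by 0.16 (SE 0.15) on the log2 scale. *SLC8A3*, a sodium-calcium exchanger, had 2.93, 1.44 and 1.98 CPM against 4.47, 6.29 and 5.39 CPM (log2 ratio 1.34 with SE 0.32, adjusted p = 0.165 by edgeR), and passed the threshold with DESeq2 (adjusted p = 0.0101). *RYR3*, a calcium release channel of the endoplasmic reticulum, had 6.99, 8.42 and 5.96 CPM against 11.7, 13.8 and 12.4 CPM (log2 ratio 0.83 with SE 0.21, adjusted p = 0.193 by edgeR), and passed it without EtOH replicate 2 (adjusted p = 0.0389 by edgeR). The pump *ATP2B4* had 72.5, 73.3 and 59.97 CPM against 57.6, 53.7 and 41.0 CPM (log2 ratio -0.43 with SE 0.18, adjusted p = 0.428 by edgeR). None of these 3, named for the smallest p-values of their list, overlapped between the titles. Of the 16 genes tested in the list, all libraries titled Tet were above all titled EtOH for 3 and below for 2. Over all genes tested these shares were 9.21% and 8.29%.

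Genes whose level over the 6 libraries was most like that of a member were sought among 8233 protein-coding genes with at least 5 CPM. For *CACNA1B* they were *TP53BP1*, *ZNF625*, *CHGB*, *CDYL2* and *PCLO*, with Pearson's r of log2 CPM between 0.994 and 0.996. Of these, *PCLO* encodes a scaffold of the presynaptic active zone and *CHGB* a granin of secretory vesicles. Each was lowest in EtOH replicate 2 and highest in Tet replicate 3, as was *CACNA1B*. For *CACNA1H* they included *PTPRS*, *H2BC15*, *UNC119B* and *ABL1*, with r between 0.972 and 0.989, and these 4 were highest in Tet replicate 3. The 100 genes most like *CACNA1H* had a median exon GC content of 56.8%, against 43.6% over all genes searched and 46.7% for the 100 most like *CACNA1B*. Depth and GC-dependent deviations differ between the 6 libraries and act on all genes of a library, so these coefficients are a description only. *CHGB* was also one of the sympathoadrenal markers, of which 6 of the 9 tested had an unadjusted p-value under 0.05 and were higher in libraries titled Tet, against 5.83% of all genes tested. None passed the adjusted threshold in this fit, and their part in the values of the channel genes was not tested.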

How the data were processed

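The deposited values are estimated counts per gene, made by the authors from STAR unique alignments of trimmed reads on GRCh38. Per the file headers, featureCounts 1.6.4 counted read pairs over exons, split a pair evenly among overlapping genes, and did not use strand, whereas the submitters' processing notes name STAR 2.7.1a and featureCounts 1.5.1. No depth or length scaling had been applied.

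From these counts, genes were kept with filterByExpr, values were rounded to whole numbers, libraries were scaled by TMM, and a quasi-likelihood fit (edgeR 4.0.16, R 4.3.3) compared Tet with EtOH, with Benjamini-Hochberg adjustment over 22443 genes. SE is the log2 fold change divided by the square root of F. CPM used TMM sizes and unrounded counts. Coordinates were checked against GENCODE v44. DESeq2 1.42.0, limma 3.58.1 (voom), other scalings and filters, a replicate block, a GC offset, and leaving out each library were alternatives. The edgeR step was also run on simulated counts. These held no GC-dependent deviation between libraries, so that run does not bear on such deviations. Replicates differed by 11.5 to 145.9 in chi-square per degree of freedom. Named genes were all alpha subunits, the most abundant gene of each list, those with the smallest p-values (under 0.05 for subunits and RGK genes), *MYCN* and the 5 genes most like a member. Some genes that this rule names are not reported here. Other genes were named after their values were seen. The members and lists were chosen with earlier results of these data known.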

Additional observations from a re-analysis of the deposited data

How the results depend on the processing

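The number of alpha subunit genes past the threshold was 0 in the main fit and in all 15 alternatives. Over all genes, 53 passed in the main fit, 302 without the filter, 485 with DESeq2, 125 with the GC correction and between 0 and 692 when 1 library was left out. The 692 came without EtOH replicate 2, and at most 2 remained in each of the other 5 such fits. The same-numbered libraries of the 2 groups correlated by 0.0603, 0.510 and 0.219 after removal of group means, which does not establish pairing, and the replicate block called 675 genes. Among the 73 accessory, anchor and calcium genes, 0 passed in the main fit, 1 without the filter, 2 with DESeq2, 1 with the GC correction, 4 with the replicate block, and between 0 and 3 with 1 library left out, the 3 again without EtOH replicate 2. The 4 genes that the replicate block called were *CACNA2D1*, *CAMK4*, *SLC8A3* and *RYR3* (edgeR adjusted p = 0.00336, 0.0408, 0.0483 and 0.0457), and it also called *CHGB* (0.0311) and *PCLO* (0.0290).

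Among the named genes, signs changed only for 6 that were far from the threshold. With 1 library left out, the log2 fold change ranged from -0.014 to 0.10 for *CACNB2*, from -0.19 to 0.63 for *GEM*, from -0.14 to 0.029 for *STAC*, from -0.22 to 0.21 for *MYCN*, from -0.010 to 0.074 for *UNC119B* and from -0.028 to 0.14 for *ABL1*. With the GC correction *ABL1* was at -0.086. Of 495 comparisons of 33 named genes with an alternative, 473 kept direction and side of the threshold and 12 newly passed it. The cause of these changes was not tested.

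Shares of the summed alpha subunit level moved with the length, by construction. *CACNA1B* was at 34.0% (EtOH) in CPM without length, and with canonical lengths at 32.2% (EtOH) and 30.1% (Tet). *CACNA1D* was at 48.4% and 45.4% in CPM and at 47.95% and 44.8% with canonical lengths. *CACNA1H* was at 16.7% (EtOH) in CPM.

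Limits are the 3 libraries per title, the count of 0 to 11 in all for 5 members, the lack of strand in the counting, and the GC-dependent differences between libraries, which are largest where *CACNA1H* lies.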
